A study of Saccharomyces cerevisiae with 8 samples.

Results

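The 10 genes described here belong to carbon source signalling in the yeast Saccharomyces cerevisiae: the 5 genes for the subunits of the Snf1 protein kinase (SNF1, SNF4, SIP1, SIP2 and GAL83) and the 5 genes for activators that act with or below it when glucose runs out (CAT8, ADR1, SIP4, RDS2 and HAP4). The members were taken by their systematic names from the annotation of the arrays, and all 10 of them were found among the 6225 genes of the array, each with 1 probe printed as 2 spots. Their systematic names were YDR477W for SNF1, YGL115W for SNF4, YDR422C for SIP1, YGL208W for SIP2, YER027C for GAL83, YMR280C for CAT8, YDR216W for ADR1, YJL089W for SIP4, YPL133C for RDS2 and YKL109W for HAP4. All 10 passed the filter on dim probes, which left 5650 genes to test.

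The study used S288C, the laboratory strain behind the reference genome, grown in batch culture in minimal medium. RNA of exponentially growing cells taken at 16, 17, 19, 20, 21, 22, 23 and 24 h was labelled with Cy5, 1 array for each time, and RNA of S288C cells aged 64 h was labelled with Cy3 and used on all 8 arrays. The carbon source and the source of the 64 h cells beyond their age are not given in the sources used here. Every value is therefore a log2 ratio of growing over 64 h cells: a negative ratio means less transcript in the growing cells, relative to all transcripts on the array. The dyes were never swapped, so a bias of 1 dye at a probe cannot be told apart from a difference between the cells. No time had another sample, and whether the times came from 1 culture or several is not stated, so a p-value here reflects array-to-array scatter that may be technical. Fewer cells with a transcript and less of it per cell cannot be told apart.

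Snf1 is the yeast AMP-activated protein kinase. It works as a complex of the catalytic subunit Snf1, the activating gamma subunit Snf4 and 1 of 3 beta subunits, Sip1, Sip2 or Gal83, which place the complex in the cell and link it to its substrates. It is switched on by phosphorylation when glucose is scarce and switched off by the phosphatase Glc7 with Reg1, and when active it inactivates the repressor Mig1 and brings on genes that glucose represses. Cat8, Sip4 and Rds2 are zinc cluster proteins that activate genes of gluconeogenesis and the glyoxylate cycle, Adr1 activates genes for the use of ethanol, glycerol and fatty acids, and Hap4 is the activating subunit of the Hap2/3/4/5 complex, which activates genes of respiration.

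Of the gene spots, 84.1% to 91.6% were well above background in Cy5 and 89.5% to 91.1% in Cy3, and the lowest correlation of log2 ratios between 2 arrays was 0.82. The arrays came from 2 slides, which were also the scan sessions: slide 1 held those of 16, 19, 22, 23 and 24 h and slide 2 those of 17, 20 and 21 h. Of the scanner files, those of 20 h and 24 h went against the authors' deposited table. Over 5582 genes the correlation of the 20 h file was -0.47 with the table's 20 h column but 0.94 with its 24 h column. For the 24 h file it was -0.43 with the 24 h column but 0.83 with the 20 h column. Of the other 6 files, 5 matched their own column best, with correlations from 0.79 to 0.91; the 21 h file gave 0.49 with its own column, against 0.53 with that of 19 h. Means over the arrays do not depend on the order of the times. Their SE and p do, since each mean was fitted together with a slope over the recorded times. Trends over time do, and they are given with the times as recorded, on the 6 arrays other than those 2, and with the 2 files exchanged.

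In growing cells the transcripts of all 5 activators were below their level in 64 h cells, while those of the kinase subunits were split. The mean log2 ratio of the 5 activators had a median of -2.05, that of the 5 kinase subunits a median of -0.13, and that of all tested genes a median of -0.02. By limma's moderated test of the mean ratio against 0, with Benjamini-Hochberg adjustment over the 5650 genes, 8 members were lower and 2 were higher in growing cells; of all tested genes 82.9% passed, 42.6% as lower and 40.3% as higher, so passing this test is common on these arrays. Of all genes, 10.2% passed it and were lower by at least 2-fold, and 4.6% passed it and were higher by at least 2-fold. No member was in the higher set, and 5 were in the lower one: SIP4, ADR1, CAT8, HAP4 and SIP2. Of these, SIP4 had passed the filter on dim probes through its Cy3 signal alone.

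**Figure D1:**
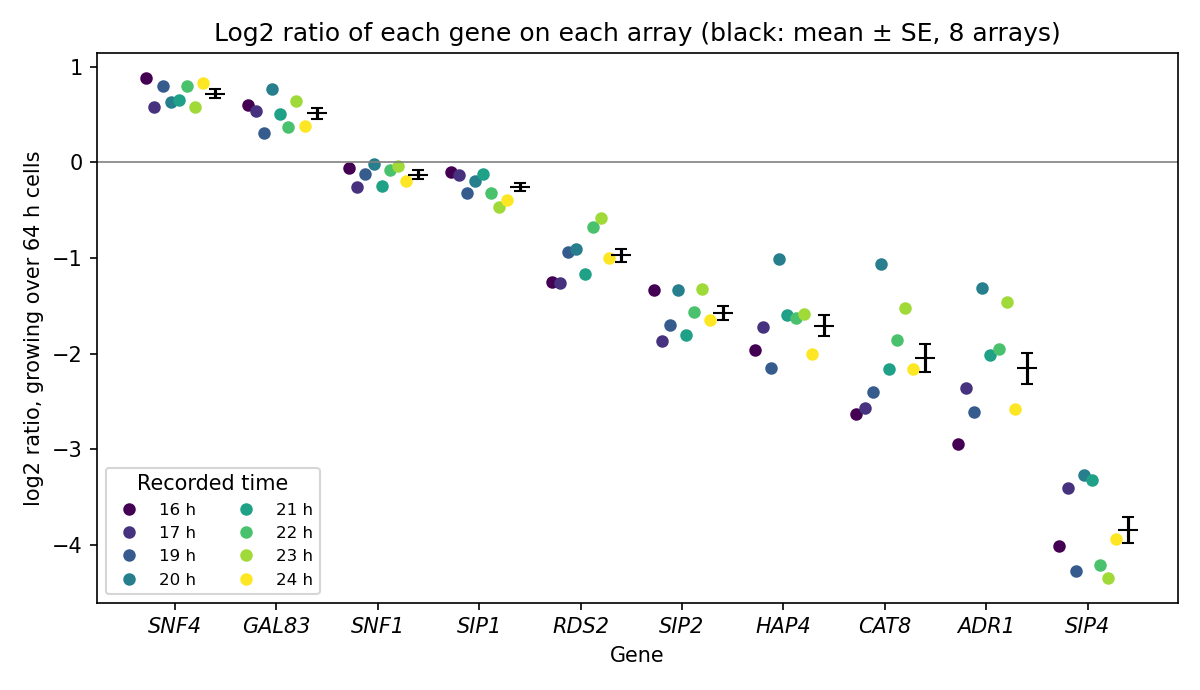
Log2 ratio of growing over 64 h cells (y axis) for each of the 10 genes (x axis, from the highest mean to the lowest); coloured points are the 8 arrays by recorded time and the black bar is the mean with its SE. SNF4 and GAL83 lie above 0 on all 8 arrays, SNF1 and SIP1 just below 0, and SIP4 lies lowest, between -4.34 and -3.27.

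SNF1 itself, the gene of the catalytic subunit, was close to equal in both kinds of cells. Its log2 ratios were -0.06, -0.26, -0.12, -0.02, -0.25, -0.08, -0.04 and -0.20 at 16, 17, 19, 20, 21, 22, 23 and 24 h. All 8 were below 0, as in 35.9% of tested genes, and their mean of -0.13 ± 0.04 (SE, n = 8) is a 1.09-fold difference with a limma adjusted p of 0.019. That call depends on the scaling: the mean was 0.02 with the scanner's own log ratio (limma adjusted p 0.641) and -0.06 with median centring of each array (limma adjusted p 0.307), and without the 21 h array it was -0.11 (limma adjusted p 0.0508). The test was also missed within slide 1, with a mean of -0.10 (limma adjusted p 0.0769), and within slide 2, with -0.17 (limma adjusted p 0.23).

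SNF4, whose product binds Snf1 and relieves its autoinhibition, was the member with the highest ratio. It had log2 ratios of 0.88, 0.58, 0.80, 0.64, 0.65, 0.80, 0.58 and 0.83 at 16, 17, 19, 20, 21, 22, 23 and 24 h, which vary little and lie above 0 on all 8 arrays, as in 31.4% of tested genes. The mean was 0.72 ± 0.05 (SE, n = 8), or 1.64-fold higher in growing cells (limma adjusted p 6.29e-07). With median centring of each array in place of loess it was 1.09. By slide the mean of SNF4 was 0.78 on slide 1 and 0.62 on slide 2.

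The genes of the 3 beta subunits did not move together. SIP2, whose product is found in the cytoplasm, had log2 ratios of -1.33, -1.86, -1.70, -1.34, -1.80, -1.57, -1.33 and -1.65 in the order of the times, all of them lower in growing cells. GAL83, whose product carries the kinase into the nucleus when glucose is low, had 0.60, 0.54, 0.31, 0.76, 0.51, 0.37, 0.64 and 0.38, all of them higher. SIP1, whose product goes to the vacuole membrane, had -0.10, -0.13, -0.32, -0.19, -0.12, -0.32, -0.47 and -0.40, close to 0 but never above it.

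Their mean log2 ratios were -1.57 ± 0.07 for SIP2 (2.98-fold lower, limma adjusted p 5.96e-08), 0.51 ± 0.06 for GAL83 (1.43-fold higher, limma adjusted p 1.85e-05) and -0.26 ± 0.04 for SIP1 (1.19-fold lower, limma adjusted p 0.000266; SE, n = 8 each). The SIP1 call was missed within slide 2, where the mean was -0.15 (limma adjusted p 0.238). GAL83 minus SIP2 was 2.09 on the log2 scale, GAL83 minus SIP1 0.77 and SIP1 minus SIP2 1.32, each with the same sign on 8 of 8 arrays. By the exact sign-flip permutation test over the arrays (two-sided) each of these 3 differences had an adjusted p of 0.0134 over the 12 pairs compared; the unadjusted p of 0.00781 is the smallest that 8 arrays can give. The ranges of the 3 genes over the 8 arrays did not overlap.

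**Figure D2:**
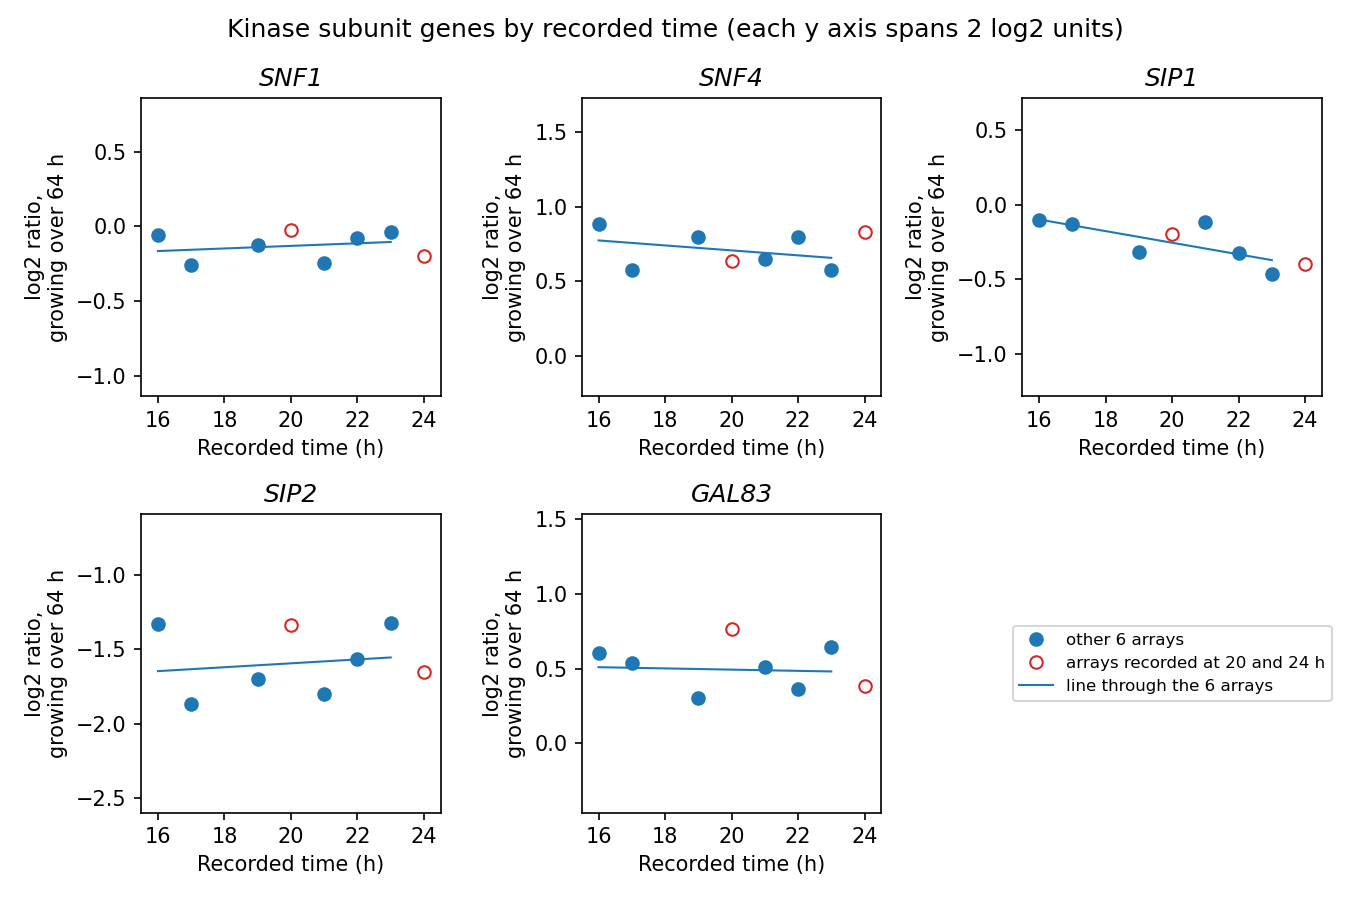
Log2 ratio of growing over 64 h cells (y axis, each panel spanning 2 log2 units) against recorded time in hours (x axis) for the 5 kinase subunit genes; filled points are 6 arrays with the line fitted to them, open points the arrays recorded at 20 and 24 h. The lines are nearly flat, with slopes from -0.04 to 0.01 log2 units per h.

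Among the activators SIP4 was lowest. It encodes a zinc cluster activator that interacts with the kinase and is itself a target of Cat8. Its log2 ratios were -4.01, -3.40, -4.27, -3.27, -3.32, -4.21, -4.34 and -3.94 in the order of the times, all of them far below 0. The mean was -3.84 ± 0.14 (SE, n = 8), 14.4-fold lower in growing cells (limma adjusted p 1.01e-08), the 57th lowest of the 5650 genes. The size of this ratio is uncertain because the Cy5 signal was near background. SIP4 passed the filter on dim probes through Cy3 alone, the channel of the 64 h cells, where its signal was high. Its p and rank are therefore no independent support for a low ratio. SIP4 spots gave 83.8 to 109.5 intensity units in Cy5, over a local background of 60.5 to 65.8, and only on the 20 h array, 1 of 8, did both Cy5 spots stand well above background. With the scanner's own log ratio, which treats background differently, the mean was -5.86. SIP4 also differed by slide: the mean was -4.15 on slide 1 and -3.33 on slide 2, and the Cy3 signal of the shared 64 h cells was 2282 to 2668 on slide 1 and 1127 to 1291 on slide 2. Other activators differed by slide too: on slides 1 and 2 the means were -2.31 and -1.90 for ADR1, -1.86 and -1.44 for HAP4, and -2.11 and -1.93 for CAT8. RDS2 went the other way, with -0.89 and -1.11. The Cy3 signal of HAP4 was 14873 to 19176 on slide 1 and 10214 to 13648 on slide 2. The part of the slide in these ratios was not tested.

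ADR1 and CAT8 followed, at almost the same level of the ratio. ADR1 had log2 ratios of -2.94, -2.36, -2.61, -1.31, -2.01, -1.95, -1.46 and -2.58 at 16, 17, 19, 20, 21, 22, 23 and 24 h. CAT8 had -2.63, -2.57, -2.40, -1.06, -2.16, -1.85, -1.52 and -2.16 at the same times. Both were lower in growing cells on every array, least so on the arrays recorded at 20 and 23 h and most at 16 h. The means were -2.15 ± 0.16 for ADR1 (4.45-fold lower, limma adjusted p 1.2e-06) and -2.05 ± 0.15 for CAT8 (4.13-fold lower, limma adjusted p 8.57e-07; SE, n = 8 each). CAT8 minus ADR1 was 0.11 with an SD of 0.23 over the arrays, from -0.21 to 0.42, and did not pass (adjusted p 0.247, exact sign-flip permutation test).

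HAP4, the regulated subunit of its complex, had log2 ratios of -1.96, -1.72, -2.15, -1.01, -1.60, -1.62, -1.59 and -2.00 in the order of the times. Its mean was -1.71 ± 0.11 (SE, n = 8), 3.26-fold lower in growing cells (limma adjusted p 5.03e-07). With median centring of each array the mean of HAP4 was -1.33. RDS2 had -1.25, -1.26, -0.94, -0.91, -1.16, -0.67, -0.58 and -0.997, the smallest differences of the 5 activators. Its mean was -0.97 ± 0.06 (SE, n = 8), 1.96-fold lower (limma adjusted p 5.08e-07). Neither gene reached 0 on any array.

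From the lowest mean ratio to the highest, the order was SIP4, ADR1, CAT8, HAP4, SIP2, RDS2, SIP1, SNF1, GAL83 and SNF4. These are ratios within a probe and say nothing of which transcript was more abundant. The 12 pairs compared were the 9 neighbours in that order and the 3 pairs of beta subunits, and 8 of them passed the exact sign-flip permutation test after adjustment over the 12. The order came from the same 8 arrays. The choice of neighbours and the sign of their mean difference were thus set by the values tested, and their p-values are a description. Among neighbours, ADR1 minus SIP4 (1.69), RDS2 minus SIP2 (0.60), SIP1 minus RDS2 (0.72) and GAL83 minus SNF1 (0.64) held on 8 of 8 arrays, each with an adjusted p of 0.0134. The size of the first is uncertain, since the Cy5 signal of SIP4 was near background; with the scanner's own log ratio it was 3.75. HAP4 minus CAT8 was 0.34 on the log2 scale, above 0 on 7 of 8 arrays (adjusted p 0.0352, exact sign-flip permutation test), and missed the threshold in 6 of the 8 fits that left out 1 array. The neighbours that did not pass were CAT8 and ADR1, SIP2 minus HAP4 at 0.13 (adjusted p 0.305), SNF1 minus SIP1 at 0.13 (adjusted p 0.131) and SNF4 minus GAL83 at 0.20 (adjusted p 0.0938), all by the exact sign-flip permutation test.

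For 9 of the 10 members, all but SIP4, the spot signals spread more widely over the arrays in Cy5, from the growing cells, than in Cy3, from the 64 h cells. The share of all genes with the wider spread in Cy5 was not counted, so this is not shown to be particular to the members. For SIP1 the highest signal was 1.59 times the lowest in Cy5 and 1.51 times in Cy3. CAT8 spots had Cy5 signals of 1426, 1808, 2440, 6056, 2152, 3668, 5934 and 3086 intensity units in growing cells at 16, 17, 19, 20, 21, 22, 23 and 24 h, against 10502 to 14181 in Cy3 for the 64 h cells. The highest Cy5 value of CAT8 was 4.25 times the lowest and the highest Cy3 value 1.35 times the lowest. ADR1 ran in the same way, with Cy5 signals of 942.5 to 4545 in growing cells and Cy3 signals of 8648 to 12267 in 64 h cells, spreads of 4.82 and 1.42 times. These signals were not normalized, and the median signal of an array itself ranged from 992.5 to 1674 in Cy5 and from 1385.5 to 2031.5 in Cy3. HAP4 gave 3433 to 7713 in Cy5 and 10214 to 19176 in Cy3, and SNF4 8374 to 14649 in Cy5 and 5420 to 7456 in Cy3. No spot of a member was saturated, and in Cy3 every spot of every member was well above background. In Cy5 the same held for 9 of the 10 members, all but SIP4. The 2 spots of a member differed by 0.02 to 0.20 on the log2 scale at the median over the arrays, and by at most 0.42. The largest differences were those of SNF4 on the 3 arrays of slide 2, at 0.41 to 0.42, against 0.01 to 0.21 on slide 1.

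**Figure D3:**
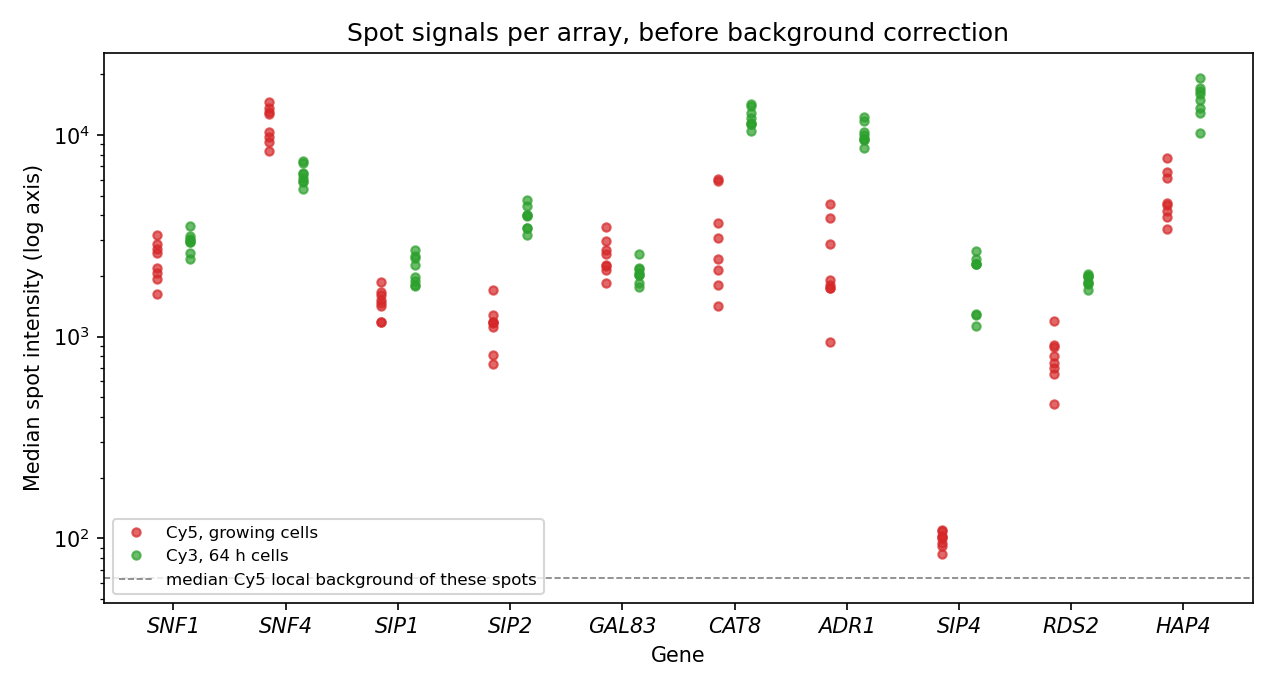
Median spot intensity before background correction (y axis, log axis) of the 10 genes (x axis) on each of the 8 arrays; red points are Cy5 (growing cells), green points Cy3 (64 h cells), and the dashed line is the median Cy5 local background of these spots. The Cy5 points of SIP4, 83.8 to 109.5, lie close above that line, and the Cy5 points of CAT8 and ADR1 spread more widely than their Cy3 points.

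Over the sampled hours the ratios of CAT8 and ADR1 rose on the 6 arrays other than those recorded at 20 and 24 h. CAT8 rose by 0.15 ± 0.02 log2 units per h (SE, limma adjusted p 0.0045), which is 2.05-fold over the 16 to 23 h that these arrays span. ADR1 rose by 0.17 ± 0.03 log2 units per h (SE, limma adjusted p 0.0104), or 2.29-fold. They were 2 of the 10 members to pass in that fit, which called 8.37% of all tested genes, 5.2% as rising and 3.17% as falling. On these 6 arrays no CAT8 value was below that of the time before, and 1 ADR1 value was, that of 19 h.

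With the times as recorded no member and none of the 5650 genes passed (0.0% called), although 385 genes had an unadjusted p under 0.05 by limma. The slopes were then 0.10 ± 0.06 log2 units per h for CAT8 (limma adjusted p 0.724) and 0.09 ± 0.06 for ADR1 (limma adjusted p 0.759). With the files of 20 h and 24 h exchanged, CAT8 rose by 0.18 ± 0.02 log2 units per h (limma adjusted p 0.000994) and ADR1 by 0.18 ± 0.03 (limma adjusted p 0.00308; SE each). That fit called 19.1% of all genes, 10.5% as rising and 8.58% as falling, and no member as falling. Within slide 1 of the exchanged fit the slopes were 0.15 for CAT8 (limma adjusted p 0.00106) and 0.20 for ADR1 (limma adjusted p 0.00173), and within the 3 arrays of slide 2 they were 0.21 and 0.15 (limma adjusted p 0.0811 each). Of the 5650 genes, the slide 1 fit called 1247 and the slide 2 fit 1. The ADR1 call on the 6 arrays was lost without the 16 h array (0.15, limma adjusted p 0.0815) and without the 23 h array (0.14, limma adjusted p 0.114); CAT8 passed with any 1 of the 6 left out. Without the 21 h array, whose file did not match its own column best, the slopes were 0.16 for CAT8 (limma adjusted p 0.00292) and 0.17 for ADR1 (limma adjusted p 0.0123).

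**Figure D4:**
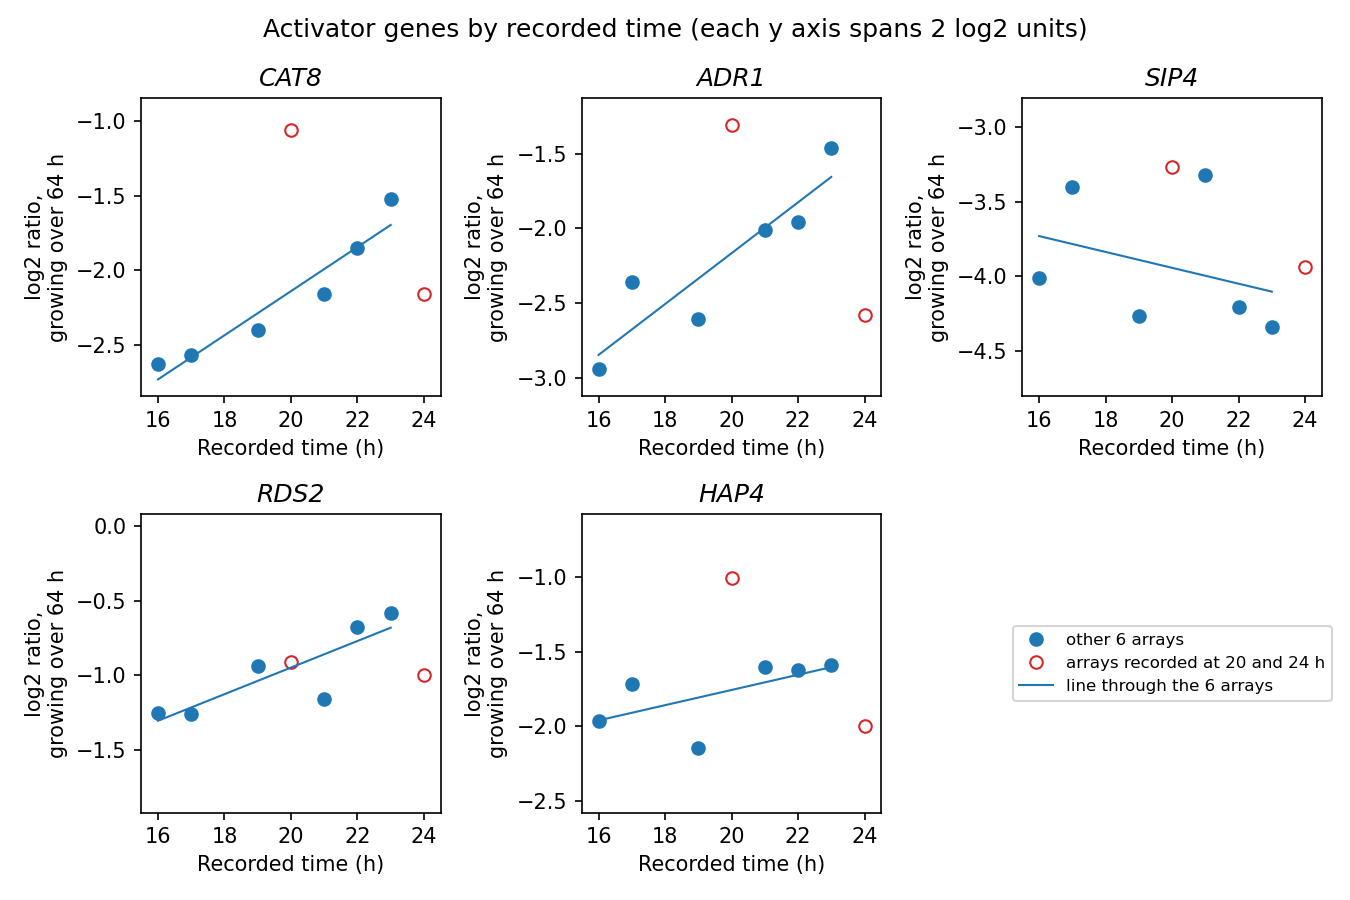
Log2 ratio of growing over 64 h cells (y axis, each panel spanning 2 log2 units) against recorded time in hours (x axis) for the 5 activator genes; filled points are 6 arrays with the line fitted to them, open points the arrays recorded at 20 and 24 h. The open points of CAT8, ADR1 and HAP4 lie far from the line, at 20 h above it and at 24 h below, and the filled points of SIP4 fall into a higher pair (17 and 21 h, slide 2) and a lower group (slide 1).

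The other activators gave weaker slopes. RDS2 had 0.09 ± 0.02 log2 units per h on the 6 arrays (limma adjusted p 0.0537) and 0.07 ± 0.02 with the files exchanged (limma adjusted p 0.0505), just short of the threshold in both. It passed in 4 of the 12 settings run on the 6 arrays and in 7 of the 16 run with the files exchanged. Among them was slide 1 alone (0.10, limma adjusted p 0.00425), where 1247 of all tested genes passed. With the slide as a block in the fit it passed in both, at 0.08 (limma adjusted p 0.00751, where 21.0% of all genes passed, 9.1% as falling) and 0.07 (limma adjusted p 0.00401, where 30.2% passed). HAP4 had 0.05 ± 0.03 on the 6 arrays (limma adjusted p 0.266) and 0.09 ± 0.03 with the files exchanged (limma adjusted p 0.0626), and with the slide as a block it passed in the exchanged fit, at 0.08 (limma adjusted p 0.0155). SIP4 had -0.05 ± 0.05 on the 6 arrays (limma adjusted p 0.581) and 0.01 with the files exchanged (limma adjusted p 0.948), so its slope had no settled sign.

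No kinase subunit had a slope that passed in these 3 fits. On the 6 arrays the slopes were 0.01 for SNF1, -0.02 for SNF4, -0.04 for SIP1, 0.01 for SIP2 and -0.0041 for GAL83, in log2 units per h, with limma adjusted p from 0.242 to 0.934. The median slope was 0.09 over the 5 activators and -0.0041 over the 5 kinase subunits, in log2 units per h, and 0.0018 over all tested genes.

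The authors' deposited table gives log2 values centred on 0 for each gene, and its columns order the times without recourse to the scanner files. In the authors' deposited table CAT8 stood at -0.66, -0.38, -0.37, -0.21, 0.01, 0.12, 0.40 and 1.09 at 16, 17, 19, 20, 21, 22, 23 and 24 h. ADR1 stood at -0.78, -0.34, -0.32, -0.34, 0.00, 0.37, 0.62 and 0.78 in the authors' deposited table. Both climbed to their highest value in the last column. A limma fit to the authors' deposited table gave slopes of 0.18 log2 units per h for CAT8 (adjusted p 0.004), 0.18 for ADR1 (adjusted p 0.00188), 0.07 for RDS2 (adjusted p 0.016), 0.07 for HAP4 (adjusted p 0.0281) and -0.04 for SIP1 (adjusted p 0.0285), with 1930 of 5609 genes called. The table and the scanner files come from the same arrays, so this is not a second measurement.

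A curve over time, tested as the squared term of time, was called for no member with the times as recorded, on the 6 arrays or with the files exchanged. By limma those fits called 0.0%, 0.0% and 0.655% of all genes, and 395, 260 and 851 genes had an unadjusted p under 0.05. The lowest adjusted p of a member was 0.0854, for CAT8 with the files exchanged. With the slide as a block in that exchanged fit, 3 members passed where 7.24% of all genes did: SIP2 (limma adjusted p 0.00963), CAT8 (limma adjusted p 0.0184) and HAP4 (limma adjusted p 0.025). The squared term was positive for all 3, at 0.03, 0.03 and 0.02 log2 units per h squared. In a limma fit to the authors' deposited table HAP4 passed (adjusted p 0.0463), where 226 of 5609 genes did.

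The pairs of members described here are the 6 whose ratios over the 8 arrays had a Pearson r with an unadjusted p under 0.05 by the exact permutation test. None of them passed after adjustment. CAT8 and ADR1 had a Pearson r of 0.92 and a Spearman rho of 0.88, and r was 0.75 without the 2 arrays farthest from the median and 0.93 after removing the mean of each slide. ADR1 and HAP4 had an r of 0.87 and a rho of 0.90, and SNF1 and SIP2 an r of 0.92 and a rho of 0.90, although the values of SNF1 span 0.23 log2 units in all. SIP1 and RDS2 ran opposite ways, with an r of -0.83 and a rho of -0.76, and r was -0.65 without the 2 farthest arrays. CAT8 and HAP4 had an r of 0.83 and a rho of 0.69, and GAL83 and HAP4 an r of 0.74 and a rho of 0.71; without the 2 farthest arrays r was 0.44 for the first pair and 0.16 for the other. None of the 45 pairs of members passed after adjustment by the exact permutation test: the lowest adjusted p was 0.0517, and 6 pairs had an unadjusted p under 0.05. The arrays share the 64 h RNA, the hybridization and the loess fit, so the values of any 2 genes on an array are not independent.

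The genes whose ratios were most like those of a member over the 8 arrays were sought among 5505 tested genes, as a description with no test. For CAT8 they were GOR1 (glyoxylate reductase), GSY1 (glycogen synthase) and YLR177W, with a Pearson r of 0.99 to 1.00. For ADR1 they were EDE1 (endocytosis), ATP4 (a subunit of ATP synthase) and PST1 (a cell wall protein), with an r of 0.99. For HAP4 they were RPM2 (mitochondrial RNase P), PPH21 (a catalytic subunit of phosphatase 2A) and TPK2 (a catalytic subunit of protein kinase A), with an r of 0.98 to 0.99. Such values were common, since 370 genes had an r above 0.9 with CAT8, 295 with ADR1, 207 with HAP4, 116 with SIP4, 77 with RDS2 and 8 with SNF1. The nearest were CMR1, EPL1 and CPD1 for SIP4, DAK1, CDC37 and SBA1 for RDS2, and PRE3, MDM12 and LAM1 for SNF1, with an r between 0.94 and 0.99. Of these 18 genes, 3 kept a place among the nearest 3 when the scanner's own log ratio was used.

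The genes around the kinase were set beside the members, from lists of its upstream kinases, its phosphatase, the glucose repressors and the targets of the activators. Against these counts stand the shares of all 5650 tested genes given above, 42.6% lower and 40.3% higher, and 10.2% lower and 4.6% higher by at least 2-fold. Of the 3 kinases that phosphorylate Snf1, SAK1 was lower in growing cells, at a mean log2 ratio of -0.48 ± 0.05 (limma adjusted p 1.76e-05), and so was TOS3, at -0.27 ± 0.05 (limma adjusted p 0.000485; SE, n = 8 each), while ELM1 stood at 0.05 (limma adjusted p 0.21). All 4 genes of the phosphatase and its partners were lower: REG2, a second regulatory subunit, at -3.12, SIP5 at -0.92, REG1 at -0.62 and GLC7, the catalytic subunit, at -0.40; 1 of them, REG2, was lower by at least 2-fold. Of the 7 repressor genes 4 were higher and 1 lower in growing cells, 1 of each by at least 2-fold. MIG2, a partner of Mig1, had a mean log2 ratio of 3.99 ± 0.28 (limma adjusted p 8.35e-07), MIG1 of 0.91 ± 0.05 (limma adjusted p 1.38e-07), and NRG1 of -1.41 ± 0.11 (limma adjusted p 1.2e-06; SE, n = 8 each). On the 6 arrays MIG2 and MIG3 fell with time, by 0.22 and 0.29 log2 units per h (limma adjusted p 0.0218 and 0.00112). That fit called 3.17% of all genes as falling. With the times as recorded neither passed (limma adjusted p 0.789 and 0.715). The mean log2 ratio of MIG3 was -0.06 and did not pass (limma adjusted p 0.807).

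The genes of the DNA-binding partners of Hap4 had ratios nearer 0 than HAP4 itself: HAP2 had a mean log2 ratio of -0.46, HAP3 of -0.45 and HAP5 of -0.20, all 3 past the test and lower in growing cells. Of the 5 other factors of derepression all were lower, with a median of -0.50; OAF1 and PIP2, activators of peroxisomal genes, stood at -0.70 and -0.61, MSN2, a stress activator, at -0.50. None of these 8 genes differed by as much as 2-fold, and 42.6% of all genes were lower by the same test.

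Genes that the activators are known to switch on were lower in growing cells almost throughout, where 42.6% of all genes were lower and 10.2% lower by at least 2-fold. By at least 2-fold, 13 of 13 targets of Cat8 and Sip4, 13 of 16 of Adr1 and 30 of 33 of Hap4 were lower. Of the 13 targets of Cat8 and Sip4, 13 were lower, with a median of the mean log2 ratio of -4.93; the 6 of them that were never saturated had a median of -5.14. MLS1 (malate synthase) stood at -7.28 ± 0.04, SFC1 (the succinate and fumarate carrier of mitochondria) at -5.80 ± 0.05 and FBP1 (fructose-1,6-bisphosphatase) at -6.18 ± 0.07 (SE, n = 8 each), and the Cy3 spots of FBP1 were saturated on 7 arrays. Of the 16 targets of Adr1, 14 were lower and 1, ALD4, was higher, with a median of -1.75; ALD4 was saturated in Cy5 on all 8 arrays, and ECI1 did not pass. ADH2, the alcohol dehydrogenase that consumes ethanol, stood at -6.11 ± 0.08 (SE, n = 8; Cy3 saturated on 6 arrays), ACS1, an acetyl-CoA synthetase also counted among the targets of Cat8, at -3.95 ± 0.13, and ADY2, an acetate carrier, at -3.88 ± 0.07, well above background in Cy5 on 7 arrays. All 33 targets of Hap4 were lower, with a median of -1.85, and of -1.78 over the 18 that were never saturated. SDH4 stood at -2.95 (Cy3 saturated on 7 arrays), and KGD1 and KGD2, subunits of the 2-oxoglutarate dehydrogenase, at -2.54 and -2.48.

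**Figure D5:**
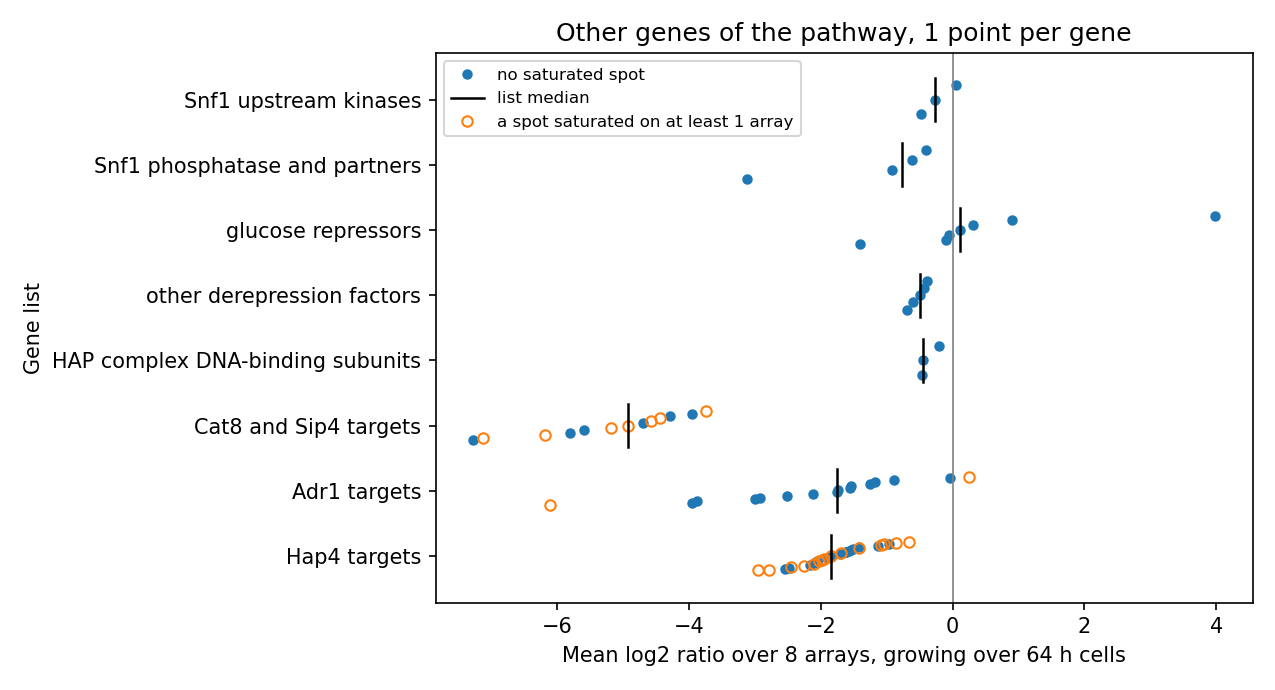
Mean log2 ratio of growing over 64 h cells over the 8 arrays (x axis) for the other genes of the pathway, grouped in 8 lists (y axis), 1 point per gene; open orange points mark genes with a saturated spot on at least 1 array and black bars the median of each list. The targets of Cat8 and Sip4 lie farthest below 0, at a median of -4.93, and the repressors, with a median of 0.11, spread from -1.41 to 3.99.

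Some targets of the activators also had slopes that passed. On the 6 arrays, where 5.2% of all genes rose, 2 of the 13 targets of Cat8 and Sip4 rose (15.4%), 3 of the 16 targets of Adr1 (18.8%) and 9 of the 33 targets of Hap4 (27.3%), and none fell. With the files exchanged, where 10.5% of all genes rose, the counts were 2 (15.4%), 9 (56.2%) and 18 (54.5%). JEN1, the lactate carrier, rose by 0.37 log2 units per h on the 6 arrays (limma adjusted p 0.00391) with Cy3 saturated on all 8, and MDH2, the cytosolic malate dehydrogenase, by 0.09 (limma adjusted p 0.0177) with Cy3 saturated on 1. POX1, the first enzyme of peroxisomal beta-oxidation, rose by 0.20 (limma adjusted p 0.00112) and SPS19, which acts in the same pathway, by 0.20 (limma adjusted p 0.00141). SDH1 rose by 0.22 (limma adjusted p 0.00503, Cy3 saturated on all 8 arrays) and SDH3 by 0.18 (limma adjusted p 0.00734, Cy3 saturated on 7). Of the genes that rose on the 6 arrays, those never saturated were 0 of the 2 targets of Cat8 and Sip4, 3 of the 3 of Adr1 and 2 of the 9 of Hap4. With the files exchanged they were 0 of 2, 8 of 9 and 8 of 18.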

How the data were processed

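RNA of growing and 64 h cells was measured on 8 Agilent 2-colour arrays. Per the file headers, spot intensity values and a log10 ratio of red over green were made by the authors with Agilent Feature Extraction 10.5.1.1 on a design annotated on sacCer2, and the same deposited files flag dim, saturated and outlier spots. The authors' deposited table gives log2 values of 5609 genes, centred per gene, in the direction of Cy5 over Cy3; how they were normalized is not stated.

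Median intensities were background corrected (normexp, offset 50) and normalized within arrays by loess with limma 3.58.1 in R 4.3.3, with control spots given no weight and outlier spots left out. The 2 spots of a probe were averaged, and the brightest probe kept for 29 genes with several. Symbols came from RefSeq for 5737 of 6225 genes. A gene was tested if it was well above background in either channel on at least 4 arrays. limma fitted the mean ratio, a slope and, in another fit, a squared term of time, at an adjusted p of 0.05. The 64 h RNA counts as 1 control sample, so its own spread is left out.

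Members and lists were chosen with earlier results of these data known. The genes named beside the members were, in each list, the 3 with the largest mean ratio and the 2 with the smallest slope p among those past the threshold, leaving out for the mean ratio those saturated on all 8 arrays; lists of up to 7 genes could be named whole. ALD4 and ECI1 were named after their values were seen, as exceptions to a count. No DNA or protein sequence was used here.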

Additional observations from a re-analysis of the deposited data

How the results depend on the processing

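The direction of every mean ratio held in each of the 17 settings run except that of SNF1, which reversed to 0.021 with the scanner's own log ratio. SNF1 passed in 12 of the 17 and SIP1 in 16, and the other 8 members in all of them, except that SIP4 was not tested where a gene had to be well above background on all 8 arrays in both channels. Median centring in place of loess moved the median of all genes by -0.01 and the scanner's ratio by 0.08 on the log2 scale. Some members moved further with median centring: HAP4 from -1.71 to -1.33, SNF4 from 0.72 to 1.09, CAT8 from -2.05 to -1.80 and SIP4 from -3.84 to -4.05. SIP2 hardly moved, from -1.57 to -1.55. The mean ratio test called 4686 genes on the 8 arrays and 2746 in a separate fit to the 3 arrays of slide 2.

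The slopes rest on the recorded times. As recorded 0 genes and 0 members passed; 473 genes and 2 members passed on the 6 arrays, 1079 and 2 after exchanging the 2 files, 1187 and 3 on the 6 arrays with the slide as a block, 1707 and 4 with the files exchanged and the slide as a block, and 1930 and 5 in a limma fit to the authors' deposited table. The fits that left out 1 array gave 106 to 600 genes and 1 to 3 members on the 6 arrays, with 106 genes without the 23 h array, 194 without that of 16 h, 205 without that of 22 h and 291 without that of 19 h. With the exchange they gave 563 to 1280 genes and 2 to 3 members, with 563 genes without the array recorded at 20 h, 680 without that of 16 h and 715 without that of 23 h, and slide 2 alone gave 1 gene and 0 members. The squared term of time called 37 genes with the files exchanged, 3 on the 6 arrays with the slide as a block, 409 genes and 3 members with the files exchanged and the slide as a block, and 226 genes and 1 member in the authors' deposited table; the cause was not tested. The settings for repeats of the 6-array slope and of the exchanged slope were chosen after the data were seen.

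RDS2 on the 6 arrays also passed with median centring (0.10, limma adjusted p 0.0467), with the strictest filter (0.09, limma adjusted p 0.0466) and without the 21 h array (0.10, limma adjusted p 0.00809). With the files exchanged HAP4 passed with median centring (0.10, limma adjusted p 0.028) and without the 17 h array (0.11, limma adjusted p 0.031). RDS2 with the files exchanged passed with the scanner's own ratio (0.06, limma adjusted p 0.0301), normexp offset 16 (0.07, limma adjusted p 0.0483) and the strictest filter (0.07, limma adjusted p 0.0463), and without the array recorded at 20 h (0.09, limma adjusted p 0.0376) or 21 h (0.07, limma adjusted p 0.0355). Some slopes changed sign. HAP4 as recorded ranged from -0.0082 to 0.056 log2 units per h over the fits that left out 1 array. SIP4 as recorded was 0.025 within slide 2, 0.0067 with the files exchanged and 0.0053 in the authors' deposited table. SIP4 with the files exchanged was -0.012 with the slide as a block, -0.037 within slide 1, and -0.053 to 0.046 over the fits that left out 1 array. Slopes of SNF1, SNF4, SIP2 and GAL83 also changed sign between settings, apart from SNF1 with the files exchanged: on the 6 arrays SIP2 ran from -0.022 to 0.073, GAL83 from -0.029 to 0.013, SNF4 from -0.035 to 0.0038 and SNF1 from -0.0017 to 0.029. They passed in 1 case, SIP2 with the files exchanged and without the 16 h array (0.08, limma adjusted p 0.0417). Depth of signal limits SIP4 alone among the members. No pairing between groups of arrays was possible because all arrays belong to 1 group.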
